A study of Mus musculus with 23 samples.

Results

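Gene expression was compared between leukemia and the precursor cells that precede it in irradiated wild-type (WT) mice. The samples were chosen by their titles: leukemic pro-B cells of WT mice (samples 14, 15 and 17) against WT pro-B and pre-B cells before leukemia (samples 18, 19 and 20), 6 of the 23 arrays of the series. The mice of all 6 samples carried intact Pax5 as far as their labels say and had received a single dose of 2 Gy at 2 months of age. The preleukemic cells were taken 3 weeks after the dose. Each sample has a number of its own in the labels and is taken here as 1 mouse, which the titles do not state. On that reading p-values describe the spread between mice. That spread was estimated over all 23 arrays of the series, not over these 6 alone. The design text counts 4 WT leukemias, and the fourth is not analysed here. The other 17 arrays come from Pax5+/- mice given the same dose, 10 leukemic and 7 preleukemic, and Pax5+/- means that 1 copy of the gene is lost. Strain, sex and any sorting of cells are not given in the sources used here, and the descriptions call the leukemic samples bone marrow cells, not sorted pro-B cells. The study's title asks whether inherited loss of Pax5 leads to leukemia by making precursor B cells sensitive to DNA damage. The WT mice show how leukemic and preleukemic samples differ without that loss. Cell stage may differ too, since pre-B cells are named only before leukemia and their share is not stated. For the leukemias, neither age at sampling nor time since the dose is given. What cell stage, age and time contribute to the rises and falls below was not tested.

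Pro-B and pre-B cells are the marrow stages at which a lymphoid progenitor becomes a B cell. The transcription factors E2A (Tcf3), Ebf1 and Pax5 act in that order to switch on B cell genes and to shut down genes of other lineages. Interleukin-7 drives division at the pro-B stage, the RAG recombinase cuts and joins the immunoglobulin genes, and the pre-B cell receptor, made of the µ heavy chain and a surrogate light chain, tests the result and then slows division. B cell acute lymphoblastic leukemia arises when cells held at these stages keep dividing.

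Each array gave 1 log2 signal per gene, and a difference of 1 on this scale is a 2-fold difference. Medians of the 6 arrays lay between 6.08 and 6.18 and 75th percentiles between 8.11 and 8.31, so a level near 5 is in the lower part of an array; the table carries no flag for background. Levels are listed below in the order leukemias 14, 15 and 17, then preleukemic samples 18, 19 and 20. Differences are leukemic minus preleukemic, with the standard error (SE) of the fit, and adjusted p is limma's, corrected over all 15542 genes tested with a threshold of 0.05. A gene is said to have risen or fallen only where it passed.

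The labels were checked against B lineage genes. Cd79a, a signalling chain of the B cell receptor, measured 11.62, 10.48 and 12.10 in leukemia and 13.11, 13.23 and 12.80 before it, above the 75th percentile of its array in all 6 samples. Igll1, the surrogate light chain of pro-B and pre-B cells, measured 12.41, 9.81 and 11.83 in leukemia and 13.08, 13.06 and 13.04 before it. Kit, a stem cell factor receptor of early pro-B cells, measured 7.24, 10.47 and 7.80 in leukemia and 7.21, 7.29 and 7.37 before it, so that leukemia 15 stood far above the preleukemic samples and leukemia 17 slightly above them.

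Preleukemic sample 20 stood apart from 18 and 19. Its correlation with them over all genes was 0.9552 and 0.9572, against 0.9913 between 18 and 19, and 0.9696 to 0.9746 among the 3 leukemias. On the first principal component of all 23 arrays, which held 59.5% of the variance, samples 18 and 19 scored -54.9 and -49.7, sample 20 scored -16.5 and the leukemias 34.8 to 40.9. Neutrophil markers were the plainest part of this: all 14 listed members were higher in sample 20 than in 18 and 19, with list means of 10.78 against 6.70 and 6.70, and the leukemias measured 9.42, 9.92 and 10.40. In the 7 Pax5+/- preleukemic samples the same mean lay between 6.31 and 7.09. Many of the results that sample 20 moves are given with and without it, but not all. Sex also coincides with stage here. Xist was above the Y-linked gene Eif2s3y in 3 of 3 WT leukemias and in 0 of 3 preleukemic samples. Stage and sex therefore cannot be told apart among the WT arrays, while the Pax5+/- arrays mix both. A fit over all arrays with sex as a covariate is given beside many of the calls that it ended, but not all.

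Of 15542 genes tested, 5780 (37.2%) passed: 2783 (17.9%) rose and 2997 (19.3%) fell in leukemia. Changes of over 2-fold leaned upward, with 907 genes higher (5.84%) and 518 lower (3.33%), while the median difference over all genes was -0.06. For 6893 genes (44.4%) the 3 leukemias did not overlap the 3 preleukemic samples, 21.1% with the leukemias higher and 23.3% with them lower. Without sample 20, 18.9% rose and 25.5% fell, and 5397 of the 5780 calls were kept in the same direction. With sex as a covariate 4782 genes passed and 4433 of the original calls were kept. Of 1299 non-overlapping calls over 2-fold, sample 20 lay on the leukemic side of samples 18 and 19 in 1097. Counts of rises, falls and non-overlap in the gene lists below are to be read beside the shares of all genes given here.

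The genes of largest rise included platelet genes. Ppbp, the platelet chemokine precursor of CXCL7, measured 12.54, 12.75 and 12.98 in leukemia and 6.06, 6.33 and 6.03 before it. It rose 98.1-fold (log2 difference 6.62, SE 0.48, adjusted p = 3.7e-09), the largest rise once sex-linked, predicted and receptor segment genes were set aside, and no leukemia came near a preleukemic sample. Pf4, another platelet chemokine, measured 9.66, 10.16 and 10.15 in leukemia and 6.47, 6.22 and 5.97 before it and rose 13.6-fold (adjusted p = 2.7e-05). Matrix and stromal genes formed a second set. Serping1, the C1 esterase inhibitor, measured 9.42, 10.54 and 10.11 in leukemia and 5.28, 5.51 and 5.69 before it, a 23.1-fold rise (adjusted p = 4.5e-07). Bgn (biglycan), Sparc (osteonectin) and Ctsk (cathepsin K, a bone-resorbing protease) rose 14.3-fold, 13.2-fold and 14.4-fold, and in each the lowest leukemia was at least as high as 9.06 while no preleukemic sample passed 6.52. Thbs1, the platelet and matrix protein thrombospondin 1, rose 14.2-fold, with 10.12, 10.76 and 11.22 in leukemia and 6.42, 6.24 and 7.96 before it.

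Other large rises were of mixed kinds. Mrgpra1, a G protein-coupled receptor, measured 10.76, 11.18 and 12.42 in leukemia and 5.07, 5.09 and 5.22 before it and rose 80.3-fold (adjusted p = 0.00036). Jchain, the joining chain of polymeric immunoglobulin and a gene that PAX5 represses, measured 12.19, 12.22 and 8.97 in leukemia and 5.03, 5.11 and 7.29 before it. Its rise was 39.9-fold (log2 difference 5.32, SE 1.16, adjusted p = 0.00136), with leukemia 17 well below the other leukemias and sample 20 above 18 and 19. Ifitm1, an interferon-induced membrane protein, split the leukemias in the same way, with 12.52, 12.96 and 9.26 in leukemia and 7.54, 8.09 and 8.28 before it, and rose 12.2-fold (adjusted p = 0.00772). Adgrg3, an adhesion G protein-coupled receptor, and Rgs18, a regulator of G protein signalling in platelets and myeloid cells, rose 13.1-fold and 12.3-fold. In both, sample 20 sat between the groups, at 8.79 and 8.88, above 18 and 19 by over 1 unit. The remaining genes of the 15, beside Flt3 described below, were ccdc198, a coiled-coil gene, and Fggy, a carbohydrate kinase, which rose 31.1-fold and 12.3-fold; a second Fggy probe set did not move in the same direction, with a difference of -0.19 (adjusted p = 0.334).

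Of the 15 genes of largest fall, 6 belong to the B lineage lists, among them Ikzf3, described below. Fcrla, which resembles Fc receptors and is found in B cells, measured 6.17, 6.30 and 6.43 in leukemia and 11.60, 11.77 and 10.90 before it. It fell 34.9-fold (log2 difference -5.12, SE 0.25, adjusted p = 7e-12), and the leukemias differed from each other by only 0.26. Siglecg, an inhibitory sialic acid receptor that restrains B cell receptor signals, measured 6.69, 6.81 and 7.02 in leukemia and 11.46, 11.47 and 10.95 before it and fell 21.9-fold (adjusted p = 8e-10). Fcmr, the receptor for IgM, fell 18.2-fold. Polm, the polymerase that fills gaps during light chain joining, measured 5.49, 5.98 and 5.68 in leukemia and 10.27, 10.45 and 9.31 before it, a 19.6-fold fall (adjusted p = 1.5e-10). Cd2, an adhesion receptor of B and T cells, measured 6.19, 9.40 and 6.03 in leukemia and 11.26, 11.17 and 10.34 before it, so leukemia 15 kept much more of it than leukemias 14 and 17.

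The other 9 genes lie outside those lists. Reln, a secreted glycoprotein best known from neurons, measured 5.55, 5.55 and 5.78 in leukemia and 10.55, 10.39 and 9.36 before it and fell 22.2-fold. Lgr5, a WNT pathway receptor, measured 5.04, 5.09 and 5.17 in leukemia and 9.38, 9.35 and 9.10 before it, which is a 18.1-fold fall (adjusted p = 4.2e-10) with hardly any spread in either group. Atp1b1, a subunit of the sodium pump, fell 18.3-fold with 7.16, 8.50 and 8.92 in leukemia and 12.46, 12.49 and 12.20 before it. Cpm, Eya1, Adam19, Fcrl6, Scd1 and Nuak1, which code for a carboxypeptidase, a transcriptional coactivator, a metalloprotease, an Fc receptor-like protein, a fatty acid desaturase and a kinase, fell between 12.9-fold and 21.0-fold. In all 15 genes of largest fall, sample 20 remained above the highest leukemia, and in 14 of them it was the lowest preleukemic sample. All 30 genes of largest change were also called without sample 20.

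**Figure D1:**
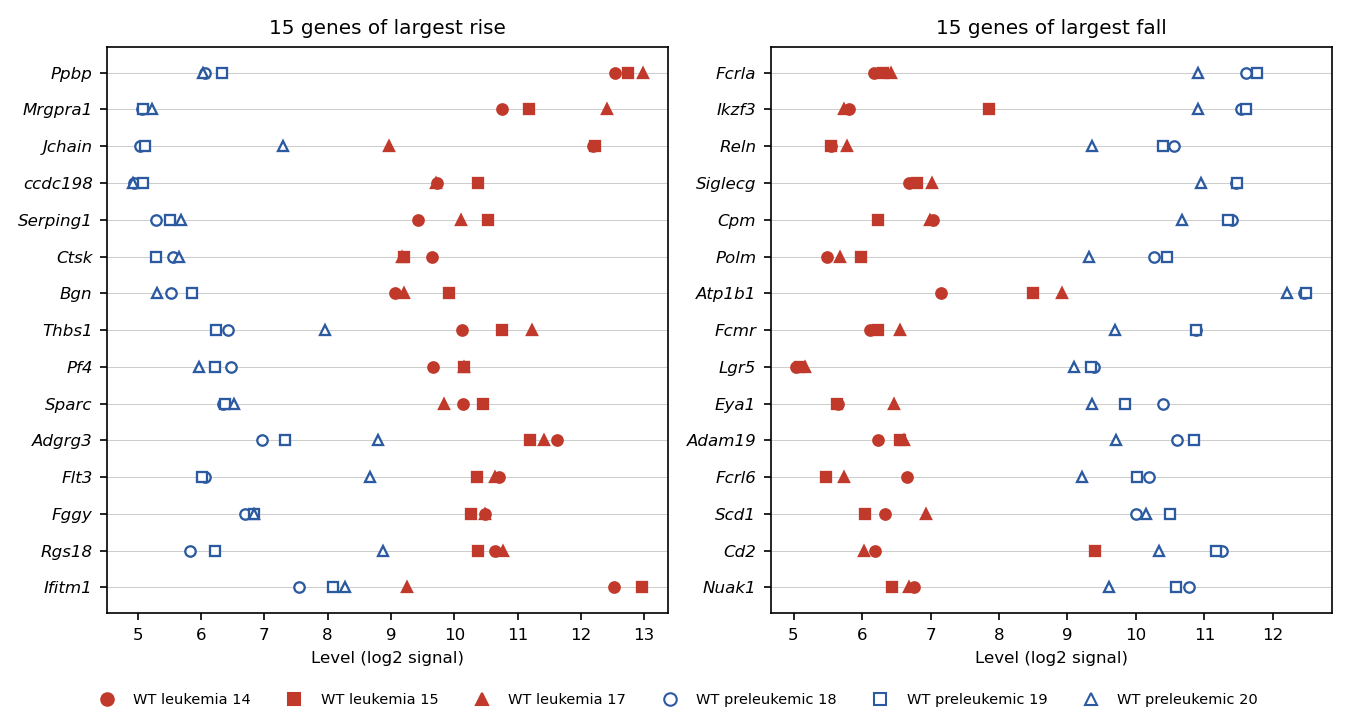
Log2 signal of the 15 genes of largest rise (left) and largest fall (right) in each WT sample, with leukemias as filled and preleukemic samples as open symbols. No gene shows overlap between the groups. Sample 20 (open triangle) is the highest preleukemic sample, or level with it, in 11 of the 15 rises, among them Jchain, Thbs1, Adgrg3, Flt3 and Rgs18. It is the lowest preleukemic sample in 14 of the 15 falls.

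Transcription factors of the B lineage fell as a group: 15 of 20 members fell, none rose, and the median difference was -1.66. Pax5 itself measured 10.68, 6.32 and 10.78 in leukemia and 11.93, 12.06 and 11.45 before it. Leukemia 15 was near the array median, the other leukemias were high but below every preleukemic sample, and the groups did not overlap. The difference was -2.55 (SE 0.91, 5.87-fold, adjusted p = 0.0335), and an exact two-sided permutation test over the 6 samples gave p = 0.1, the smallest it can give. The limma call rests on leukemia 15: without it the difference was -1.08 (adjusted p = 0.278). Without preleukemic samples 18 or 19 adjusted p was 0.0849 and 0.0953. With sex as a covariate it was 0.159, and in a fit of the 6 WT samples alone 0.143.

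The factors around Pax5 fell with less spread. Ebf1, which acts with Pax5 to fix B cell identity, measured 10.75, 9.80 and 11.09 in leukemia and 12.59, 12.47 and 12.21 before it and fell 3.67-fold (adjusted p = 2.2e-05). Tcf3, which codes for E2A, measured 9.48, 9.26 and 9.41 in leukemia and 11.45, 11.59 and 10.99 before it and fell 3.89-fold (adjusted p = 2.5e-06). Foxo1, the factor that keeps Rag and Il7r genes active, measured 8.68, 8.29 and 8.67 in leukemia and 11.24, 11.18 and 10.43 before it, a 5.29-fold fall. None of these 3 genes overlapped, and leukemia 15 was the lowest in each. Ikzf3 (Aiolos), which limits division after the pre-B cell receptor forms, had the steepest fall of the list, with 5.81, 7.86 and 5.73 in leukemia and 11.53, 11.61 and 10.91 before it and a 29.5-fold change (adjusted p = 2.1e-07). Bach2, a repressor that guards the pre-B checkpoint, measured 8.94, 8.16 and 8.60 in leukemia and 12.31, 12.34 and 11.77 before it and fell 11.9-fold (adjusted p = 4.6e-09).

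Lef1, a WNT-responsive factor of precursor B cells, measured 5.60, 7.48 and 7.54 in leukemia and 10.27, 10.49 and 10.25 before it and fell 11.0-fold (adjusted p = 0.00263). Irf4 and Spib, an interferon regulatory factor and an ETS factor that promote pre-B differentiation, fell 6.5-fold and 5.48-fold. Ikzf1 (Ikaros) fell by a small and even amount, with 10.48, 10.42 and 10.69 in leukemia and 11.21, 11.14 and 11.05 before it and a 1.52-fold change (adjusted p = 0.00042). Spi1 (PU.1), the factor shared by B and myeloid cells, did not pass: it measured 10.58, 10.40 and 10.31 in leukemia and 10.43, 10.69 and 10.60 before it (difference -0.14, SE 0.23, adjusted p = 0.645), with the groups overlapping. In bulk samples fewer cells of a type and less RNA per cell cannot be told apart.

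**Figure D2:**
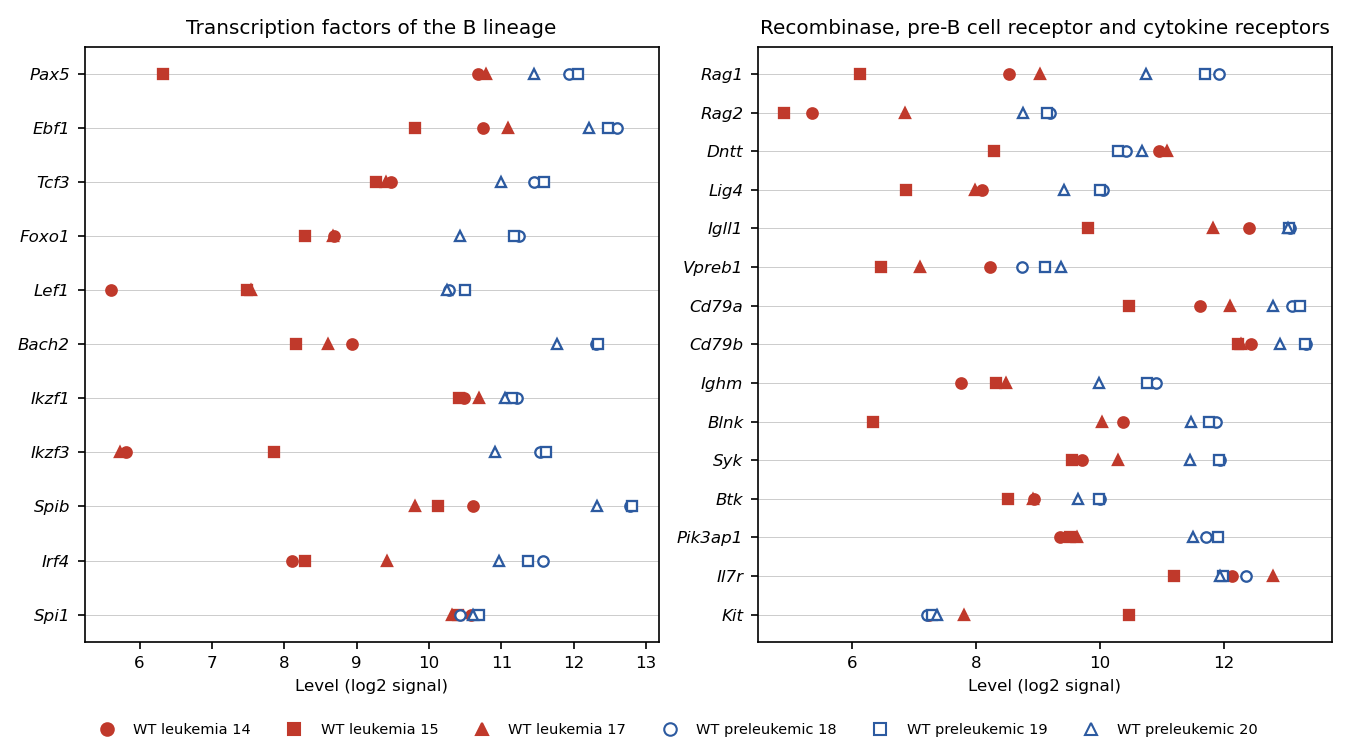
Log2 signal of B lineage transcription factors (left) and of recombinase, pre-B cell receptor and cytokine receptor genes (right) in each WT sample. Leukemia 15 (filled square) is the lowest sample for Pax5, Ebf1, Foxo1, Rag1, Igll1 and Blnk and the highest for Kit, while Spi1 and Il7r overlap.

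Genes that PAX5 is known to activate fell almost without exception. Of 17 members tested, 16 fell and 0 rose, with a median difference of -2.70 (-2.87 without sample 20), and all 17 were lower in every leukemia than in every preleukemic sample. Blnk, the adaptor that links the pre-B cell receptor to calcium signals, measured 10.37, 6.34 and 10.04 in leukemia and 11.88, 11.77 and 11.47 before it and fell 6.92-fold (adjusted p = 0.00185); leukemia 15 again stood far below the others. Neil1, a DNA glycosylase of base excision repair, measured 7.09, 7.05 and 6.87 in leukemia and 10.77, 10.53 and 9.95 before it, a 10.7-fold fall (adjusted p = 8.2e-09). Ms4a1 (CD20) measured 6.00, 7.63 and 5.75 in leukemia and 9.11, 9.26 and 8.96 before it and fell 6.28-fold. Cplx2, a regulator of vesicle fusion, fell 4.09-fold with 5.83, 5.99 and 5.75 in leukemia and 7.85, 8.22 and 7.60 before it. Leukemias 14 and 17, where Pax5 was 10.68 and 10.78, had about the same levels of Fcrla, Siglecg, Neil1 and Cplx2 as leukemia 15, where Pax5 was 6.32. Other members of the list were not level: Blnk and Cd79a were lowest in leukemia 15, while Ikzf3 and Ms4a1 were highest there. How the levels of these genes follow Pax5 was not tested. The means of the whole list were 7.74, 7.73 and 8.10 in the leukemias.

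Genes that PAX5 is known to repress moved the other way: 8 of 14 rose, 0 fell, and the median difference was 1.92. Without sample 20, 9 rose with a median of 2.23, and with sex as a covariate 7 rose. Flt3, the receptor of lymphoid and myeloid progenitors, measured 10.71, 10.36 and 10.65 in leukemia and 6.06, 6.01 and 8.67 before it and rose 12.6-fold (log2 difference 3.66, SE 0.73, adjusted p = 0.00062). Csf1r, the macrophage colony-stimulating factor receptor, measured 11.72, 10.88 and 8.59 in leukemia and 6.45, 6.41 and 7.80 before it and rose 11.4-fold (adjusted p = 0.00062). Lmo2, a cofactor of stem and progenitor cells, measured 10.37, 10.07 and 10.58 in leukemia and 7.87, 7.81 and 9.25 before it, a 4.08-fold rise (adjusted p = 4e-05). In these 3 genes sample 20 lay above 18 and 19 and below every leukemia. Grap2, an adaptor of T cell signalling, rose 3.17-fold. Notch1, the receptor that directs progenitors toward T cells, was higher in all 3 leukemias with 11.18, 11.08 and 10.51 in leukemia and 10.08, 10.23 and 9.97 before it but did not pass (adjusted p = 0.115). Monocyte and macrophage markers, a list that also holds Csf1r, had means of 8.31, 8.26 and 8.42 in the leukemias and 6.26, 6.35 and 7.23 before leukemia, and their part in this result was not tested.

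Components of the pre-B cell receptor and its signalling chain mostly fell: 13 of 18 fell and 1 rose, with a median difference of -1.24. Of the surrogate light chain genes, Igll1 fell 3.27-fold (difference -1.71, SE 0.62, adjusted p = 0.037) and Vpreb1 measured 8.23, 6.46 and 7.09 in leukemia and 8.74, 9.12 and 9.37 before it and fell 3.52-fold (adjusted p = 0.018). Neither call is firm. Without leukemia 15, adjusted p was 0.242 for Igll1 and 0.0923 for Vpreb1. Igll1 also missed the threshold without preleukemic sample 18, 19 or 20 (0.0864, 0.0873 and 0.0563) or with sex as a covariate (0.0601), and Vpreb1 without sample 19 (0.0529). In a fit of the 6 WT samples alone adjusted p of Igll1 was 0.0837. Ighm, the µ heavy chain, measured 7.76, 8.33 and 8.49 in leukemia and 10.91, 10.77 and 9.98 before it and fell 5.13-fold (adjusted p = 0.00323). The signalling chains Cd79a and Cd79b fell 3.13-fold and 1.82-fold. Syk, the kinase recruited by these chains, measured 9.71, 9.55 and 10.29 in leukemia and 11.95, 11.92 and 11.46 before it, a 3.8-fold fall (adjusted p = 1.5e-06). Btk, the kinase downstream of Syk, and Pik3ap1 (BCAP), the adaptor for PI3 kinase, fell 2.12-fold and 4.63-fold. Plcg2, the phospholipase that these kinases activate, was the member that rose, with 10.77, 10.63 and 10.71 in leukemia and 9.88, 10.12 and 10.11 before it and a 1.59-fold change (adjusted p = 5.7e-05).

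The recombination machinery moved in both directions. The RAG genes, which cut the immunoglobulin loci, were lower in every leukemia: Rag1 measured 8.53, 6.12 and 9.03 in leukemia and 11.93, 11.70 and 10.75 before it and fell 11.8-fold (adjusted p = 0.00016). Rag2 measured 5.35, 4.90 and 6.85 in leukemia and 9.20, 9.15 and 8.76 before it and fell 10.1-fold (adjusted p = 0.0005). Dntt, the polymerase that adds untemplated bases at the joints, did not pass; it measured 10.95, 8.29 and 11.09 in leukemia and 10.43, 10.30 and 10.68 before it, so leukemias 14 and 17 were above every preleukemic sample and leukemia 15 below them. Of the end joining genes, Lig4, the ligase of the final step, measured 8.09, 6.87 and 7.99 in leukemia and 10.06, 10.00 and 9.42 before it and fell 4.52-fold, and its partner Xrcc4 fell 1.37-fold. Xrcc5 (Ku80), which binds the broken ends, measured 9.57, 9.19 and 8.63 in leukemia and 7.10, 7.08 and 7.43 before it and rose 3.8-fold (adjusted p = 0.00016). The gap-filling polymerases diverged: Polm, given above, had the steepest fall of the list, while Poll rose. Poll and Trp53bp1, an end-protection factor, rose 1.72-fold and 1.41-fold. Over the 15 members 4 rose and 6 fell, with a median difference of -0.30, where 17.9% of all genes rose and 19.3% fell.

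Among B cell surface receptors 8 of 18 fell and 1 rose (6 and 0 with sex as a covariate); 5 fell when sample 18 or sample 19 was left out. Fcgr2b, the inhibitory Fc receptor, measured 7.74, 8.29 and 8.04 in leukemia and 9.97, 9.88 and 9.69 before it and fell 3.54-fold (adjusted p = 3.9e-05). Il2ra (CD25), which marks pre-B cells, measured 11.15, 10.79 and 12.13 in leukemia and 12.04, 11.94 and 11.37 before it and did not pass (difference -0.43, SE 0.68). Cd22, an inhibitory receptor, gave a difference of -0.18 (SE 0.52) with overlapping groups. The list's median difference was -0.42.

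Genes of interleukin-7 signalling showed few calls, and none of them held whichever sample was left out. Il7r, the receptor that sustains pro-B cells, measured 12.13, 11.20 and 12.80 in leukemia and 12.36, 11.99 and 11.95 before it, a difference of -0.06 (SE 0.26, adjusted p = 0.88). In the interleukin-7, JAK and STAT list 1 of 15 rose and 3 fell, and the single rise, Stat5a, came from leukemia 15, with 9.19, 11.08 and 7.90 in leukemia and 7.82, 8.27 and 8.13 before it; without leukemia 15 adjusted p was 0.401, and it also missed the threshold without leukemia 14 or without any 1 of the 3 preleukemic samples, and with sex as a covariate (0.057). For Stat5a a fit of the 6 WT samples alone gave an adjusted p of 0.214. None of the 3 falls (Tyk2, Socs1 and Pim2) passed when leukemia 14, leukemia 17, sample 18 or sample 19 was left out. With sex as a covariate 1 gene of the list fell. Socs2, a feedback inhibitor of these receptors, measured 12.14, 12.27 and 7.67 in leukemia and 8.10, 8.57 and 9.21 before it, high in leukemias 14 and 15 only.

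In the BCL2 family 2 of 14 rose and 4 fell, where 17.9% of all genes rose and 19.3% fell. Bcl2, the survival protein, measured 8.64, 9.90 and 9.65 in leukemia and 7.26, 7.79 and 9.15 before it and passed only without sample 20 (adjusted p = 0.0764 with it and 0.0181 without it). Bcl2l1, which codes for BCL-XL, measured 7.34, 8.63 and 8.15 in leukemia and 9.70, 9.89 and 9.34 before it and fell 3.04-fold (adjusted p = 3.3e-05). Mcl1, the survival protein that interleukin-7 maintains, measured 9.68, 9.57 and 9.73 in leukemia and 10.76, 10.53 and 10.36 before it, a 1.85-fold fall (adjusted p = 2.9e-05). Bmf, a BH3-only death gene, fell 3.66-fold. Without sample 20 the list had 4 rises and 5 falls.

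Of 22 RAS-MAPK genes and feedback inhibitors, 2 rose and 3 fell (3 and 5 without sample 20, 1 and 4 with sex as a covariate), a smaller share than the 37.2% of all genes. Spry1, a feedback inhibitor, measured 8.37, 8.06 and 9.04 in leukemia and 7.28, 7.23 and 7.34 before it and rose 2.31-fold (adjusted p = 0.00449). Dusp6, a phosphatase of ERK, ranged from 7.44 to 10.60 among the leukemias and did not pass (adjusted p = 0.34). Braf and Rasa1 fell by 1.39-fold and 1.39-fold, a kinase and a brake of the same pathway.

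Myc and the genes of ribosome production rose together. Myc measured 11.80, 11.49 and 9.96 in leukemia and 7.72, 7.77 and 9.35 before it and rose 6.98-fold (log2 difference 2.80, SE 0.56, adjusted p = 0.00066). Leukemia 17 was lower than 14 and 15, and sample 20 was above 18 and 19. Without sample 20 Myc rose 10.1-fold. Mycn, its relative, measured 6.27, 6.54 and 6.38 in leukemia and 6.39, 6.56 and 6.26 before it and gave a difference of -0.01 (SE 0.17). Among 12 genes of the MYC and MAX network 1 rose and 3 fell, where 17.9% of all genes rose and 19.3% fell. The members that fell, Mxi1, Mnt and Mlxip, oppose or parallel MYC. Their falls were each lost when leukemia 15, sample 18 or sample 19 was left out. Those of Mxi1 and Mnt were also lost with sex as a covariate (adjusted p = 0.141 and 0.0722).

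Of 25 ribosome biogenesis and MYC target genes, 24 rose and 0 fell, all 25 were higher in every leukemia than in every preleukemic sample, and the median difference was 1.05 (1.14 with 22 rises without sample 20). Srm, spermidine synthase, measured 11.19, 11.05 and 10.80 in leukemia and 7.45, 7.85 and 9.25 before it and rose 7.11-fold (adjusted p = 1.6e-05). Without sample 20 Srm rose 10.3-fold. Cad, the enzyme that starts pyrimidine synthesis, measured 9.16, 9.02 and 8.84 in leukemia and 7.27, 7.60 and 7.94 before it, a 2.65-fold rise (adjusted p = 1.6e-05). Mybbp1a and Nolc1, nucleolar proteins of ribosomal RNA synthesis, rose 2.94-fold and 2.49-fold. Ncl (nucleolin) measured 11.32, 11.24 and 11.09 in leukemia and 10.16, 9.98 and 10.83 before it and rose 1.86-fold. Odc1, ornithine decarboxylase and a known MYC target, passed narrowly (adjusted p = 0.0483), and missed the threshold when any 1 sample other than 18 was left out (highest adjusted p 0.218, without sample 19) or with sex as a covariate (0.0695). The E-box CACGTG, read on both strands, was in 4 of 21 RefSeq promoter windows of this list (19.0%) and in 7.15% of all 32851 windows; a window spans 300 bases, 250 of them before the start site.

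Mitosis genes rose in number but with sample 20 inside the leukemic range. Of 24 members 22 rose and 0 fell, with a median difference of 1.25, yet only 4 were free of overlap. Their promoters share a short element, and 4 are shown because they belong to the rising members of smallest p that carry it. The element is the cell cycle homology region, TTTGAA or TTCGAA on either strand (TTCAAA is TTTGAA read from the other strand), and it was in 19 of 22 RefSeq windows of the list (86.4%, 17 of the 20 members with a window) against 6316 of 32851 windows (19.2%). The stretches run 5′ to 3′ in the direction of the gene up to its RefSeq start site, on build GRCm38.p6, with the element nearest the start in capitals:
Kif2c (chr4:117178773-117178995, minus strand): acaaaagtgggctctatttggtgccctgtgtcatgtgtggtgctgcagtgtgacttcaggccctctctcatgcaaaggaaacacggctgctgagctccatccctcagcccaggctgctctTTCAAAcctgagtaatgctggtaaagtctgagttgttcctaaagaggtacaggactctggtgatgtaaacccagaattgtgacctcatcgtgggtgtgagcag
Cdk1 (chr10:69352913-69353047, minus strand): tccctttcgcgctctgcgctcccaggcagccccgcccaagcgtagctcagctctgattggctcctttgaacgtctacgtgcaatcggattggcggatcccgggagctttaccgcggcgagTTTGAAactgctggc
Ect2 (chr3:27153867-27154104, minus strand): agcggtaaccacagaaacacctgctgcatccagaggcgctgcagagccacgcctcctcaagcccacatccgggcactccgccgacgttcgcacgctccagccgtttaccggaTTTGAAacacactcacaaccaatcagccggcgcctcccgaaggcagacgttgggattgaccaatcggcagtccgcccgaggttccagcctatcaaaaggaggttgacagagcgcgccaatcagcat
Kif11 (chr19:37376243-37376381, plus strand): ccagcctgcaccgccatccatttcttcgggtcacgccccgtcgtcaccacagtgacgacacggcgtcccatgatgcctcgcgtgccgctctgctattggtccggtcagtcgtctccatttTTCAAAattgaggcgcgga
The capitals end 97, 9, 132 and 13 bases before the start. The stretches of Cdk1, Ect2 and Kif11 also hold CCAAT on 1 of the strands, 2, 3 and 1 times, and that of Kif2c does not; CCAAT, which was counted after these sequences were seen, was in 18 of 22 windows of the list (81.8%) against 37.4% of all windows. A match is a description of the letters and was not tested for binding.

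The values behind these promoters follow sample 20. Cdk1, the kinase that starts mitosis, measured 11.25, 11.22 and 10.87 in leukemia and 8.54, 8.63 and 10.76 before it and rose 3.49-fold (log2 difference 1.80, SE 0.42, adjusted p = 0.00216). Kif2c, a microtubule depolymerase of the centromere, measured 9.19, 9.03 and 8.46 in leukemia and 6.40, 6.35 and 8.50 before it and rose 3.51-fold. Kif11, the motor that separates the spindle poles, measured 10.34, 10.02 and 10.02 in leukemia and 7.76, 7.63 and 10.32 before it, with sample 20 level with the leukemias, and rose 2.94-fold (adjusted p = 0.0109). Ect2, which directs the cleavage furrow, measured 9.98, 9.67 and 9.82 in leukemia and 7.44, 7.77 and 9.78 before it; it and Kif11 were chosen for their promoters, and their calls were lost without sample 18 (Ect2, adjusted p 0.0573) or without sample 18 or 19 (Kif11, highest 0.0939). Plk1, a master kinase of mitosis, measured 11.12, 11.23 and 10.62 in leukemia and 7.90, 8.53 and 10.81 before it and rose 3.76-fold. Top2a, the topoisomerase of chromosome separation, was highest of all in sample 20, with 11.01, 10.75 and 10.81 in leukemia and 8.87, 8.84 and 11.26 before it, and rose 2.3-fold (adjusted p = 0.028, 7.4e-06 without sample 20, and missed when any 1 of the other 5 was left out or with sex as a covariate, 0.0959). In a fit of the 6 WT samples alone adjusted p of Top2a was 0.194.

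Without sample 20 the mitosis list had 23 rises and a median difference of 1.96, and Plk1 had an adjusted p of 4.9e-07. Leaving out another sample reduced the rises, to 6 without sample 18, 9 without sample 19, 12 without leukemia 14 and 14 without leukemia 15, with sex as a covariate there were 14, and in a fit of the 6 WT samples alone there was 1. The neutrophil markers that set sample 20 apart are listed above, and their part in the mitotic levels of that sample was not tested.

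DNA replication genes rose with clearer separation: 24 of 28 rose, 0 fell, 24 did not overlap, and the median difference was 0.98 (1.24 with 26 rises without sample 20). With sex as a covariate 21 rose. Mcm6, a subunit of the replicative helicase, measured 10.98, 10.87 and 10.83 in leukemia and 9.02, 9.11 and 10.09 before it and rose 2.8-fold (adjusted p = 0.00012). Mcm2, of the same helicase, rose 2.57-fold. Tyms, thymidylate synthase, measured 9.89, 9.63 and 10.01 in leukemia and 7.30, 7.53 and 9.08 before it, a 3.66-fold rise (adjusted p = 0.00039). Pole, the leading strand polymerase, rose 3.02-fold with 9.95, 9.72 and 9.80 in leukemia and 7.56, 7.97 and 9.15 before it. Rrm2, a subunit of ribonucleotide reductase, measured 10.18, 10.14 and 10.17 in leukemia and 9.11, 9.40 and 10.50 before it and did not pass with sample 20 (adjusted p = 0.286), where its level was highest, but did without it (0.0453).

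G1 regulators moved in both directions, with 9 of 20 rising and 5 falling (11 and 5 without sample 20). Cdk6, the G1 kinase of blood cells, measured 12.02, 11.33 and 12.13 in leukemia and 8.83, 9.25 and 10.23 before it and rose 5.24-fold (log2 difference 2.39, SE 0.27, adjusted p = 1.5e-06). Cdk4 measured 12.45, 12.41 and 12.32 in leukemia and 11.11, 11.25 and 11.65 before it and rose 2.08-fold (adjusted p = 6.6e-06). Their cyclins went opposite ways: Ccnd2 measured 11.68, 11.74 and 10.61 in leukemia and 8.47, 9.16 and 10.03 before it and rose 4.36-fold (adjusted p = 0.033), while Ccnd3, the cyclin of pre-B cells, measured 9.18, 9.71 and 10.10 in leukemia and 10.39, 10.50 and 10.62 before it and fell 1.79-fold (adjusted p = 0.0221). Ccnd2 missed the threshold without leukemia 14 or 15 or sample 18 or 19 (highest adjusted p 0.133) or with sex as a covariate (0.097), and Ccnd3 without leukemia 14 or sample 19 (highest 0.133).

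The inhibitors of these kinases also divided. Cdkn2c (p18) measured 10.34, 10.11 and 10.38 in leukemia and 7.03, 7.11 and 9.20 before it and rose 5.64-fold (adjusted p = 9.1e-05). Cdkn1b (p27) measured 9.10, 9.05 and 9.59 in leukemia and 10.92, 10.40 and 10.08 before it and fell 2.33-fold (adjusted p = 0.00012). Rb1, the gatekeeper of S phase, measured 9.00, 9.28 and 9.75 in leukemia and 10.77, 10.53 and 10.65 before it, a 2.47-fold fall (adjusted p = 4.2e-05). Cdkn2a, which codes for p16 and p19ARF, was near the array median in every sample, with 5.91, 6.02 and 6.15 in leukemia and 5.97, 6.10 and 6.08 before it (difference -0.02, SE 0.09). E2f3 rose 2.48-fold and E2f2 fell 3.29-fold, transcription factors of the same family. The list had 5 rises when sample 18 or sample 19 was left out, and 5 with sex as a covariate; 3 genes fell without leukemia 14 or sample 19.

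**Figure D3:**
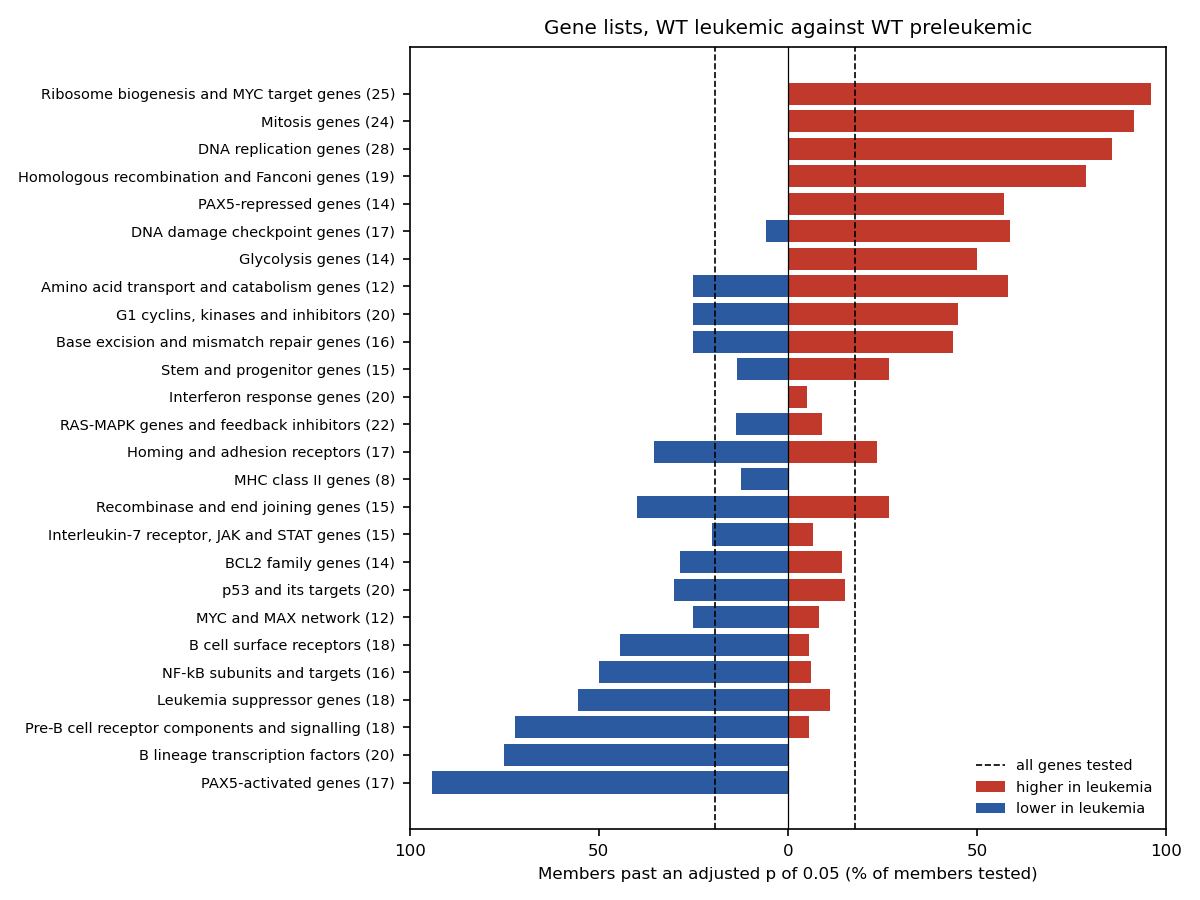
Percentage of the tested members of each gene list (number in brackets) that rose (red, right) or fell (blue, left) in WT leukemia, with the percentages over all genes as dashed lines. Ribosome, mitosis and replication genes extend furthest to the right and PAX5-activated genes furthest to the left.

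DNA repair genes followed replication in part. In the homologous recombination and Fanconi list 15 of 19 rose and 0 fell, with a median difference of 0.78. Without sample 20, 17 rose, and with sex as a covariate 12 rose. Brca2, a mediator of homologous recombination, measured 8.05, 7.84 and 7.89 in leukemia and 5.97, 6.62 and 7.42 before it and rose 2.39-fold (adjusted p = 0.00169). Exo1, the nuclease that trims broken ends, measured 8.28, 7.94 and 8.07 in leukemia and 6.74, 6.57 and 7.50 before it and rose 2.23-fold (adjusted p = 0.00097). The groups overlapped in neither gene.

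Of 17 checkpoint genes 10 rose and 1 fell (12 and 1 without sample 20). Chek1, the kinase that halts cells with stalled forks, measured 9.43, 8.91 and 9.34 in leukemia and 7.29, 6.90 and 8.38 before it and rose 3.26-fold (adjusted p = 0.0005). Its counterpart for breaks, Chek2, measured 7.58, 7.24 and 7.47 in leukemia and 6.26, 5.95 and 6.80 before it, a 2.13-fold rise (adjusted p = 0.00066). The apical kinases Atm and Atr rose less, 1.62-fold and 1.35-fold, and both calls were lost when leukemia 14 or sample 19 was left out (highest adjusted p 0.061 and 0.121). Rad9a, of the 9-1-1 clamp, was the member that fell, by 1.5-fold.

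Base excision and mismatch repair genes split, with 7 of 16 rising and 4 falling; 4 rose when leukemia 14, sample 18 or sample 19 was left out. Apex1, the endonuclease of abasic sites, measured 10.06, 9.79 and 9.59 in leukemia and 7.70, 7.83 and 8.53 before it and rose 3.47-fold (adjusted p = 1.9e-06). Msh3, a mismatch recognition protein, measured 7.81, 7.76 and 7.66 in leukemia and 8.95, 8.97 and 8.69 before it and fell 2.18-fold (adjusted p = 2.5e-06). Neil1, given above as a PAX5 target, had the steepest fall of this list too.

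Known targets of p53 gave 3 rises and 6 falls among 20, where 17.9% of all genes rose and 19.3% fell. Btg2, an antiproliferative gene, measured 8.79, 9.01 and 9.07 in leukemia and 12.36, 11.96 and 11.37 before it and fell 7.67-fold (log2 difference -2.94, SE 0.30, adjusted p = 3.6e-07). Rrm2b, the p53-induced ribonucleotide reductase subunit, measured 6.66, 6.56 and 6.68 in leukemia and 9.17, 9.31 and 8.39 before it, a 5.0-fold fall (adjusted p = 3.5e-08). Mdm2, the ligase that degrades p53, measured 8.31, 8.11 and 8.38 in leukemia and 9.41, 9.08 and 8.93 before it and fell 1.83-fold. Ddb2, of nucleotide excision repair, went up 2.65-fold, with 7.93, 7.74 and 7.48 in leukemia and 6.18, 6.05 and 6.71 before it. The median of the list was 0.13, and all 4 genes were free of overlap, as were 44.4% of all genes.

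Genes known as suppressors of precursor B leukemia fell more often than they rose, 10 of 18 against 2 (1 without leukemia 14, sample 18 or sample 19), with a median difference of -0.51. The list shares Bach2, Ebf1, Ikzf1, Rb1, Cdkn1b and Btg2 with the lists above. Btg1, a relative of Btg2 that is often deleted in leukemia, measured 10.27, 10.35 and 11.01 in leukemia and 12.98, 12.81 and 12.48 before it and fell 4.64-fold (adjusted p = 5.4e-06). Etv6, an ETS repressor, measured 10.42, 9.93 and 10.06 in leukemia and 9.00, 8.95 and 9.29 before it and rose 2.08-fold (adjusted p = 0.00016). Nr3c1, the glucocorticoid receptor, did not pass: it measured 8.59, 8.71 and 9.63 in leukemia and 8.58, 8.46 and 8.54 before it, raised mainly in leukemia 17.

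Genes of NF-kB feedback fell: 8 of 16 members fell and 1 rose, with a median difference of -0.81, and 5 fell when sample 18 or sample 19 was left out. Nfkbie, an inhibitor of NF-kB, measured 8.37, 8.10 and 7.85 in leukemia and 10.50, 10.30 and 9.45 before it and fell 3.94-fold (adjusted p = 4.8e-06). Tnfaip3 (A20), the deubiquitinase that ends the signal, measured 7.49, 7.45 and 7.21 in leukemia and 10.05, 9.26 and 8.64 before it, a 3.82-fold fall (adjusted p = 0.00026). Birc3 and Nfkbia, an inhibitor of apoptosis and IkB alpha, fell 3.07-fold and 2.99-fold. In all 4 genes sample 18 was the highest preleukemic sample and sample 20 the lowest. Tnf, the cytokine, was the member that rose, with 8.34, 9.05 and 7.81 in leukemia and 6.37, 6.59 and 7.10 before it and a 3.28-fold change (adjusted p = 0.0005).

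Antigen presentation and interferon genes were uneven among the leukemias. Of 8 MHC class II genes 1 fell and 0 rose, with a median difference of -0.89; 4 fell with sex as a covariate. H2-Ob, a regulator of peptide loading, measured 8.23, 6.30 and 8.72 in leukemia and 10.33, 10.48 and 10.04 before it and fell 5.79-fold (adjusted p = 0.00159). H2-Ab1 measured 9.08, 7.24 and 8.68 in leukemia and 9.71, 10.06 and 10.59 before it, lower in every leukemia, but did not pass (adjusted p = 0.0811). Of 20 interferon response genes 1 rose and 0 fell (4 rose without sample 20, 8 without leukemia 14 and 0 without leukemia 15 or sample 18; 3 fell without leukemia 15 and 1 with sex as a covariate). Irf7, the amplifier of the interferon response, measured 7.06, 10.29 and 7.92 in leukemia and 6.74, 7.20 and 8.09 before it, and Rtp4, the 1 member that rose, measured 8.19, 10.41 and 8.19 in leukemia and 6.18, 7.13 and 7.24 before it (4.23-fold, adjusted p = 0.0157, and 0.116 without leukemia 15). In a fit of the 6 WT samples alone adjusted p of Rtp4 was 0.0542. The mean of the interferon list was 9.02 in leukemia 15 against 6.78 in leukemia 14 and 7.42 in leukemia 17.

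Metabolic genes rose in part. Of 14 glycolysis genes 7 rose and 0 fell (9 rose without sample 20), with a median difference of 0.54. Ldha, lactate dehydrogenase A, measured 11.80, 11.73 and 11.38 in leukemia and 9.94, 10.05 and 10.91 before it and rose 2.53-fold (adjusted p = 1.9e-05). Pdk1, the kinase that diverts pyruvate from the mitochondrion, measured 9.13, 8.52 and 8.80 in leukemia and 6.62, 7.11 and 7.42 before it, a 3.4-fold rise (adjusted p = 4e-05). Slc2a1, the main glucose transporter, did not pass (difference 0.18, SE 0.17). Of 12 amino acid genes 7 rose and 3 fell (5 and 3 with sex as a covariate). The leucine transporter Slc7a5 measured 10.71, 10.85 and 10.61 in leukemia and 8.38, 8.60 and 9.79 before it and rose 3.48-fold (adjusted p = 2.5e-05), while the glutamine transporter Slc1a5 measured 9.26, 9.56 and 9.95 in leukemia and 11.79, 11.73 and 11.30 before it and fell 4.05-fold (adjusted p = 1.9e-05). The falls of Bcat1, which breaks down branched amino acids, and Mtor, the growth kinase, are given with the genotypes below.

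Stem and progenitor genes gave 4 rises and 2 falls among 15 (1 fall with sex as a covariate), where 17.9% of all genes rose and 19.3% fell. Besides Flt3 and Lmo2, Bmi1, a Polycomb gene of self-renewal, measured 8.65, 8.20 and 8.81 in leukemia and 7.56, 7.28 and 7.76 before it and rose 2.03-fold (adjusted p = 0.00107). Cd34 and Hoxa9, markers of early progenitors, did not pass and stayed between 5.10 and 6.82 in all 6 samples. Of 17 homing and adhesion receptors 4 rose and 6 fell, beside the same shares of all genes. S1pr1, which lets lymphocytes leave the marrow, measured 6.89, 7.09 and 7.14 in leukemia and 10.11, 9.93 and 9.01 before it and fell 6.25-fold (adjusted p = 2.3e-07). Cxcr4, which retains them there, measured 11.20, 10.96 and 11.67 in leukemia and 12.46, 12.19 and 11.81 before it and fell 1.84-fold (adjusted p = 0.00631). Cd44, an adhesion receptor for hyaluronan, measured 7.21, 7.91 and 7.92 in leukemia and 8.91, 9.07 and 9.40 before it, a 2.73-fold fall, and the integrin chain Itga5 went up 2.05-fold.

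Markers of other marrow cells were measured as whole lists, since the descriptions name bone marrow cells. Megakaryocyte and platelet markers were higher in every leukemia: 7 of 8 rose, none overlapped, and the list means were 8.96, 9.42 and 9.75 against 6.67, 6.73 and 6.62. Gp9, a platelet glycoprotein, measured 9.14, 9.50 and 10.01 in leukemia and 6.72, 6.60 and 6.53 before it and rose 7.64-fold (adjusted p = 6.4e-05). Of 12 stroma and endothelium markers 9 rose and 1 fell, with means of 8.26, 8.50 and 8.36 against 6.45, 6.55 and 6.49. Lepr, the marker of stromal cells around marrow sinusoids, measured 6.54, 6.46 and 6.57 in leukemia and 4.58, 4.99 and 4.65 before it and rose 3.44-fold (adjusted p = 1.7e-05), while Col1a1, collagen of bone, did not pass. Sample 20 lay with 18 and 19 in both lists, and without it 7 of 8 and 7 of 12 rose. With sex as a covariate 6 members of each list rose. The part of these cell types in the results above was not tested.

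Macrophage markers behaved in the same way for some members. Of 13, 6 rose and 0 fell (9 without sample 20). C1qb, a complement gene of tissue macrophages, measured 10.00, 10.30 and 9.68 in leukemia and 6.70, 6.22 and 6.61 before it and rose 11.2-fold (adjusted p = 1.3e-05). Vcam1, an adhesion molecule of macrophages and stroma, measured 9.34, 10.29 and 9.87 in leukemia and 6.01, 6.42 and 6.36 before it, a 11.9-fold rise (adjusted p = 1.6e-06). Adgre1 (F4/80) did not pass, with 5.80, 5.69 and 6.82 in leukemia and 5.14, 5.31 and 5.72 before it. Of 14 neutrophil markers none passed in limma with sample 20 (1 at an unadjusted p under 0.05, 12 with array weights), and 11 rose without it, with a median difference of 2.05 with and 3.57 without it. S100a8, of the neutrophil protein calprotectin, measured 10.56, 11.18 and 11.45 in leukemia and 6.57, 6.84 and 12.08 before it.

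Erythroid markers split the leukemias. The means of 6 members were 6.14, 9.04 and 9.26 in leukemias 14, 15 and 17 and 6.33, 6.37 and 8.12 before leukemia; 4 rose and none was free of overlap. Alas2, the heme enzyme of red cell precursors, measured 6.77, 11.00 and 11.13 in leukemia and 7.78, 7.88 and 11.21 before it. The count fell to 1 without leukemia 15, leukemia 17 or sample 18, and to 2 with sex as a covariate or without sample 19. NK markers were high in leukemia 15 and sample 20, with means of 5.42, 8.46 and 5.73 against 6.07, 6.74 and 7.78, and none of 9 passed in limma (1 at an unadjusted p under 0.05); without leukemia 15, 5 fell. T cell markers (5.63, 6.57 and 6.18 against 5.55, 5.71 and 6.16) and mature B cell markers (6.89, 6.96 and 6.77 against 7.05, 7.19 and 7.14) gave no calls in limma either, with 1 of 9 and 1 of 4 at an unadjusted p under 0.05. Plasmacytoid dendritic cell markers were highest in sample 20 (9.89) and leukemia 17 (9.25), against 8.09 to 8.35 in the other 4 samples; Siglech measured 7.29, 7.40 and 9.90 in leukemia and 6.73, 7.24 and 11.08 before it. Plasma cell markers gave 3 rises and 3 falls, and basophil, eosinophil and mast cell markers 2 rises among 5 (0 without leukemia 14).

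**Figure D4:**
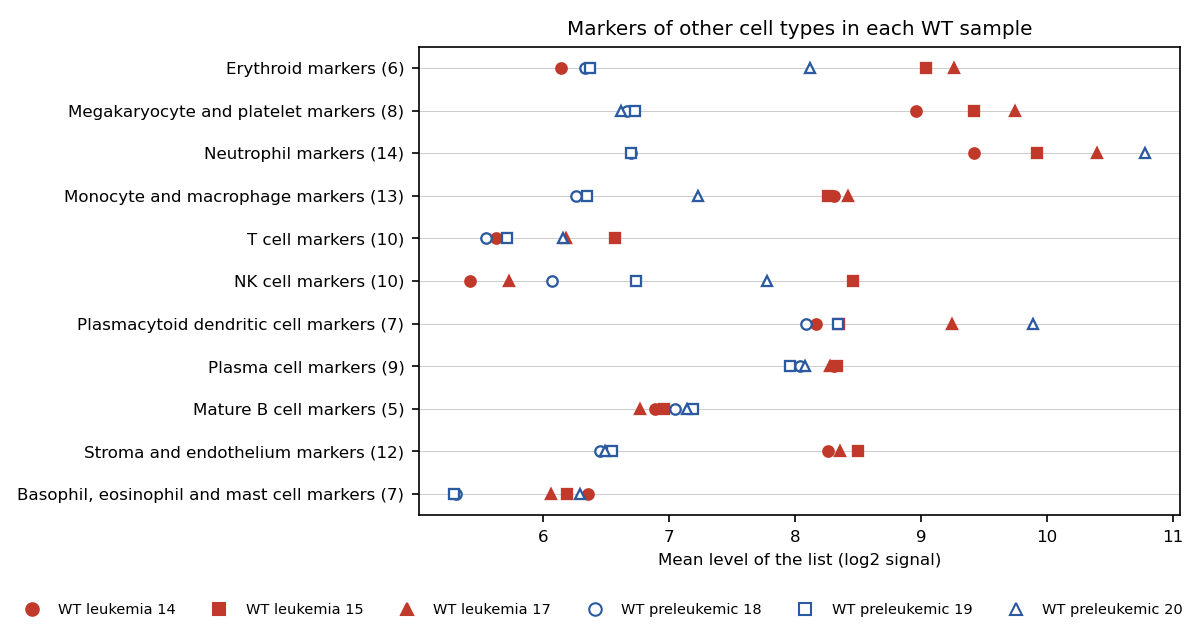
Mean log2 signal of each list of cell type markers (number of members on the array in brackets) in each WT sample. Megakaryocyte and stroma means are higher in all 3 leukemias, while the neutrophil mean of preleukemic sample 20 lies above every leukemia.

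The 3 leukemias were not alike in several genes. Between 314 and 401 genes differed over 2-fold from the mean of the other 2 leukemias, against 186 to 713 in the preleukemic group. The widest ranges, given as a description, were in Rnase12, a ribonuclease family gene (12.08, 11.00 and 5.30), Ncr1, Gzma and Klrc1, NK cell genes that were high in leukemia 15 only (10.38, 10.75 and 9.99 there), and Cdh17, a cadherin high in leukemia 17 only (5.54, 5.04 and 10.32). Cd3g, a T cell receptor chain, was 10.39 in leukemia 15, while Cd3e in that leukemia was 6.92. Scin, an actin-severing protein, ranged from 6.32 to 11.00 among the leukemias, above 5.61, 5.63 and 5.51 before leukemia. Leukemia 15 thus differed in several groups: it was the lowest leukemia for Pax5, Blnk, Rag1, Igll1, Dntt and H2-Ob. It was the highest leukemia for Kit, Stat5a, Irf7 and the listed NK genes other than Klrd1, which was highest in leukemia 17.

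The same stage comparison in Pax5+/- mice, which shares no sample with the WT comparison, gave more calls, 28.0% higher and 36.5% lower, with more samples in each group. Of the 5780 WT calls 5200 (90.0%) were also called there in the same direction, which is 51.8% of the 10034 Pax5+/- calls, and 7 were called in the opposite direction. The difference between the stage effects passed for 15 genes (0.0965%), and for 1118 at an unadjusted p under 0.05. In all 15 the WT difference was the more negative. In each of them the WT preleukemic mean was above the Pax5+/- preleukemic mean, and the gap between the genotypes was larger before leukemia than in leukemia.

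Edaradd, an adaptor of the ectodysplasin receptor, averaged 9.16 ± 0.37 (SD, n = 3) in WT preleukemic cells and 5.98 ± 0.41 (SD, n = 3) in WT leukemias. In Pax5+/- mice the means were 7.20 ± 0.19 (SD, n = 7) and 5.94 ± 0.25 (SD, n = 10), so the stage difference was -3.18 in WT and -1.26 in Pax5+/- mice (difference of differences -1.92, adjusted p = 0.0009). Dock9, an activator of CDC42, fell by 2.03 in WT mice and was 0.72 higher in Pax5+/- leukemia, a difference of -2.75 (adjusted p = 0.00373). Slc1a5 averaged 11.61 ± 0.27 (SD, n = 3) in WT preleukemic cells and 8.51 ± 0.25 (SD, n = 7) in Pax5+/- preleukemic cells; the stage differences were -2.02 and -0.12 (adjusted p of the difference 0.0139). Bcat1 measured 5.74, 5.69 and 5.69 in leukemia and 6.98, 7.14 and 7.68 before it in WT samples, where it fell 2.95-fold, and its stage difference in Pax5+/- mice was 0.05 (adjusted p of the difference 0.0308). Mtor measured 8.82, 8.53 and 8.65 in leukemia and 9.12, 9.34 and 9.14 before it and fell 1.45-fold in WT mice, and the means of Pax5+/- leukemic and preleukemic samples were 8.69 and 8.70 (adjusted p of the difference 0.0297). The last 3 calls are not firm. Without WT preleukemic sample 19, adjusted p of the difference was 0.0994 for Slc1a5, 0.0994 for Bcat1 and 0.174 for Mtor, and without WT leukemia 15 it was 0.0706, 0.113 and 0.161. Slc1a5 also missed the threshold without sample 18 (0.0693), Bcat1 without sample 20 (0.0809), and Bcat1 and Mtor without leukemia 17 (0.0754 for both).

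**Figure D5:**
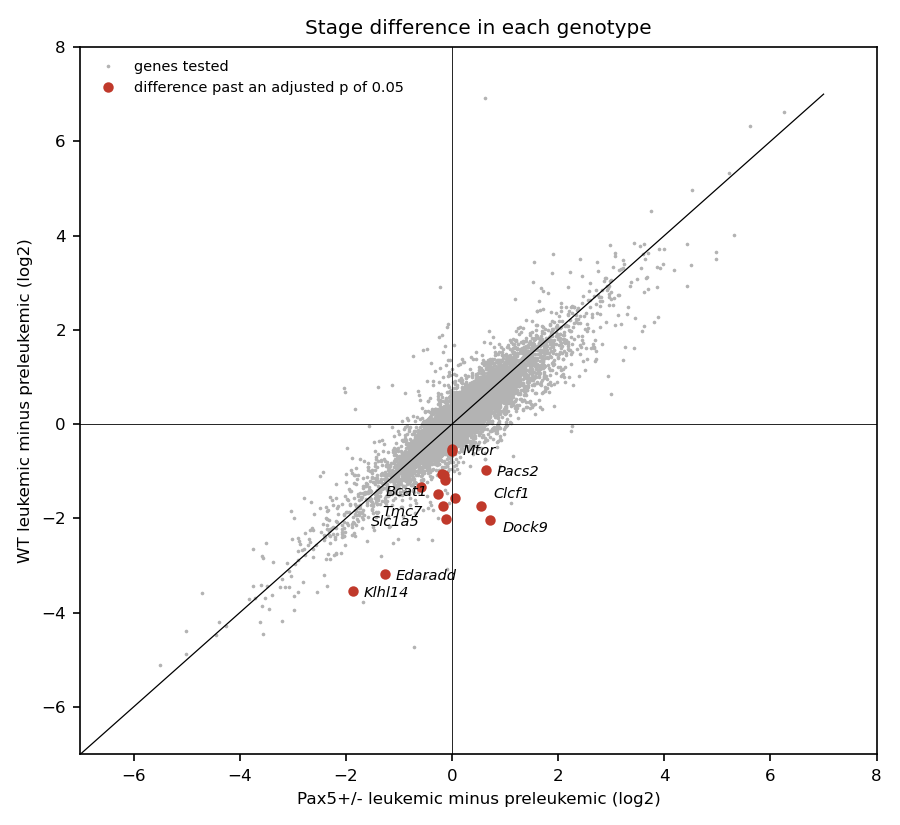
Stage difference (log2, leukemic minus preleukemic) of each gene tested in WT mice against that in Pax5+/- mice, with the line of equal differences; red points are the 15 genes whose differences themselves differ. All 15 lie below the line, as with Dock9 at -2.03 in WT and 0.72 in Pax5+/- mice.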

How the data were processed

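Per the labels' protocols, RNA of bone marrow cells was isolated with Trizol, labelled with biotin and put on arrays in a single colour. The values used are the authors' deposited log2 signals per probe set. Transcriptome Analysis Console is named, with no version, per the submitters' processing notes. Background correction, summarization, normalization and genome build are not given in the sources used here. Values of the WT arrays ran from 3.68 to 14.16, and precision is limited by how few arrays there are.

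Sample titles set the groups. Of 28944 probe sets, 21789 carried 1 gene symbol, 1621 several and 5534 none in the platform annotation, and the last 2 kinds were left out; 21698 matched the RefSeq gene table by gene ID. The probe set of highest mean stood for each of 19938 symbols. Testing required a level above an array's 30th percentile on 3 or more arrays, a filter that kept 15542 genes and took out 4396.

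The linear model of limma 3.58.1 (R 4.3.3) held all 4 groups of the series, with eBayes moderation following intensity, and leaves 19 residual degrees of freedom. Each p is two-sided, and the Benjamini-Hochberg adjustment covers every gene tested in a contrast. Folds are 2 raised to the fitted difference. The contrasts were WT leukemic minus WT preleukemic, and that difference minus the same difference in Pax5+/- mice. Pax5 was also compared by exact permutation of the 6 samples.

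The samples compared, the 26 gene lists, the 11 lists of cell type markers and the tests were chosen with earlier results of these data known, so a list's count describes it and is no independent evidence. Lists were given by counts and medians beside those of all genes, with no set test; of 578 distinct listed genes, 528 were on the array under the names used. Named genes were, among genes past the threshold, the 15 that rose most and the 15 that fell most (no predicted genes, receptor segments or sex-linked genes), up to 5 passing members of smallest p in each direction per list, key members fixed per list, 8 genes of smallest p per direction for the difference from Pax5+/- mice, and the 10 of largest range among the leukemias. Where a gene lies outside this rule, the text says how it was chosen. Promoter windows and their sequences are from RefSeq (GRCm38.p6), matched by symbol for 20 of 24 mitosis genes and 19 of 25 ribosome genes.

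The fit was repeated with the filter removed or raised to the 50th percentile, with eBayes lacking the trend or using robust priors, with weighted arrays, after quantile normalization or centring on the median, on the WT samples alone, on every probe set, with sex as a covariate, and without each sample in turn. Giving values without sample 20 beside many of the results was chosen after the data had been seen. On simulated data for the WT comparison (15542 genes), limma recovered 40.3% of 67 changed genes at a log2 change of 0.5. It recovered 71.6% of 67 at 1 and 100% of 66 at 2, with 6 unchanged genes called. Far fewer genes changed there than passed in the real data, and each gene had the same spread in all groups. These shares therefore do not measure recovery in the real comparison. Figures were drawn with matplotlib 3.10.9.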

Additional observations from a re-analysis of the deposited data

Results flagged for a closer look

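For 15 genes the stage difference (leukemic minus preleukemic, log2) differed between WT and Pax5+/- mice by a test of the difference itself in limma, and in each the WT value was the lower. The difference between the stage differences was -1.56 for Tmc7 (adjusted p = 0.0001), -1.92 for Edaradd (0.0009), -0.88 for Col5a3 (0.00271), -2.75 for Dock9 (0.00373) and -1.62 for Pacs2 (0.00439). Tmc7, a transmembrane channel-like gene, averaged 6.67 ± 0.53 (SD, n = 3) in WT preleukemic cells, 5.16 ± 0.10 (SD, n = 7) in Pax5+/- preleukemic cells, and 4.93 and 4.99 in the leukemias of either genotype. Pacs2, a sorting protein, fell by 0.97 in WT mice and was 0.64 higher in leukemia in Pax5+/- mice.

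It was -0.74 for Fxyd6 (0.00972), -1.23 for Enpep (0.0105), -0.92 for Hdac11 (0.0107) and -1.90 for Slc1a5 (0.0139). Enpep, an aminopeptidase of precursor B cells, averaged 6.72 ± 0.65 (SD, n = 3) before leukemia in WT mice against 5.43 ± 0.09 (SD, n = 7) in Pax5+/- mice, and Hdac11, a histone deacetylase, 6.63 ± 0.26 (SD, n = 3) against 5.73 ± 0.07 (SD, n = 7). In Pax5+/- preleukemic cells the means of Tmc7, Enpep and Hdac11 were below the median of every array. A further fall is hard to see at such levels. Bcat1 gave -1.61 (0.0308) and Mtor -0.53 (0.0297). The remaining genes fall outside the naming rule and are named because they complete the set: Tmc6 with -1.06 (0.0121), Klhl14 with -1.67 (0.024), Clcf1 with -2.28 (0.024) and Nup210 with -0.58 (0.0397).

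Of the 15 calls, 10 passed without WT preleukemic sample 18, 6 without sample 19, 13 without sample 20, 15 without leukemia 14, 9 without leukemia 15, 10 without leukemia 17, 9 with sex as a covariate and 14 after quantile normalization. Tmc7, Edaradd, Col5a3, Dock9, Pacs2 and Enpep passed in each of these 8 settings. All 8 settings take 1 spread per gene over all groups. For Tmc7, Col5a3 and Enpep the WT preleukemic samples had SDs of 0.53, 0.34 and 0.65, against at most 0.10 in any other group. The SE of the fit may therefore be too small for these genes, and passing every setting does not make their calls firm.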

How the results depend on the processing

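The 5780 calls became 3537 when the fit held only the 6 WT samples, and genes lower in leukemia became 1537 there, against 2997. With 1 sample left out the calls ranged from 3794 to 6902 and the lower genes from 1797 to 3966; 3048 calls passed whichever sample was left out. The other settings gave 4782 (sex as a covariate) to 7990 calls (array weights). Quantile normalization gave 2422 rises and 3213 falls, and the filter at the 50th percentile 2769 and 2357. The 15 genes whose stage difference differed between genotypes became 82 with array weights and 6 to 98 with 1 sample left out; that contrast could not be fitted with only the WT samples. No paired analysis was possible because the sample numbers are unique and the groups share none. The Pax5 difference kept its direction in every setting, from -3.31 to -1.08. Of 220 named genes that passed, 158 did so under every setting. In the fit of the 6 WT samples alone, 43 of the 220 missed the threshold. A reversed sign occurred for Fggy at its least favourable probe set (-0.19) and for Eif2s3y with sex as a covariate (0.01), which is a Y-linked gene. The cause of the other shifts was not tested. With 3 samples a group, a log2 change of 0.5 was often missed in simulated data, where far fewer genes changed than passed here. A gene that did not pass may still differ.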

Other observations

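Plasma cell genes did not move as a group. Beside Jchain, Mzb1, a chaperone of antibody assembly, measured 12.02, 11.66 and 11.66 in leukemias 14, 15 and 17 against 10.91, 10.71 and 10.45 before leukemia, a 2.13-fold rise (limma adjusted p = 0.00063). The transcription factors of the plasma cell list differed in direction. Xbp1 measured 9.85, 10.06 and 9.66 in leukemia against 9.32, 9.33 and 9.58 and rose 1.36-fold (limma adjusted p = 0.0223, 0.104 with sex as a covariate, and up to 0.108 when leukemia 14 or 15 or sample 18 or 19 was left out). Irf4 fell 6.5-fold (limma adjusted p = 4e-05). Prdm1 (Blimp-1) measured 5.47, 5.57 and 5.29 against 5.93, 5.77 and 5.82 and did not pass (limma adjusted p = 0.136, though it passed with sex as a covariate at 0.0171). Sdc1 (CD138), a surface proteoglycan, fell 2.09-fold (limma adjusted p = 0.0413, 0.0603 with sex as a covariate, and up to 0.163 when leukemia 14 or 15 or sample 18 or 19 was left out).

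Granule genes of eosinophils were highest in leukemia 14. Prg2, the major basic protein, measured 9.20, 7.91 and 7.24 against 6.12, 6.03 and 6.95 and rose 3.36-fold (adjusted p = 0.00577), and without leukemia 14 adjusted p was 0.0536. Mcpt8, a protease of basophils, was highest in preleukemic sample 20 at 8.00, against 4.94 and 4.89 in samples 18 and 19 and 6.05 to 6.99 in the leukemias.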
